A study of Mus musculus with 6 samples.

Results

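The 10 genes described here belong to fibroblast growth factor (FGF) signalling and its built-in brakes. They are the receptors Fgfr1 and Fgfr3, the transcription factor gene Etv5, the phosphatase gene Dusp6, the Sprouty genes Spry1, Spry2 and Spry4, and the Spred genes Spred1, Spred2 and Spred3. They were taken by name from the 55416 gene IDs of the count table, because the cells were cultured in FGF2. They were chosen by a measured value, the level of Spred2 RNA in EU-labelled libraries above that in unlabelled ones. The difference between labelled and unlabelled cells is therefore given for these 10 genes as a description without a test. Tests are given for other genes of the pathway, listed by role, of which 105 of 138 had enough counts.

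RNA was measured in mouse neural progenitor cells derived from embryonic brain and held in quiescence, a reversible state without division, by a medium with 10 ng/ml FGF2 and 20 ng/ml BMP4. In the EU group, 250 µM of 5-ethynyluridine (EU), a uridine analogue that cells build into the RNA they are making, was added 1 day after quiescence was induced. In the PBS group cells received phosphate-buffered saline (PBS) in place of EU, and both groups carried the same FGF2 and BMP4. RNA was collected on day 8, 7 days after labelling, EU-bearing RNA was coupled to biotin by click chemistry and bound to streptavidin beads, and RNA of the PBS cells went through the same steps to measure what binds without label. Each group had 3 libraries, numbered as in the sample titles. Neither the mouse strain nor the number of animals or cultures behind them is given. The SD therefore measures the spread between these libraries, which may be technical, and the SE of a fold comes from the model fitted to them. An EU level combines how much of an RNA was made while EU was present and how much of it lasted for 7 days, and these cannot be told apart here. Likewise fewer cells of a type and less RNA per cell cannot be told apart.

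FGF receptors are tyrosine kinases that, once bound by FGF and heparan sulphate, act through the adaptor Frs2, Ras, Raf and Mek on the kinase Erk. Erk activity turns on transcription of Etv5, Dusp6 and Sprouty genes, whose products feed back on the pathway: Dusp6 removes the activating phosphates from Erk, and Sprouty and Spred proteins restrain the step from Ras to Raf. In neural progenitors FGF2 sustains proliferation and, when it is combined with BMP4, the cells leave the cell cycle and stay quiescent.

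Depth differed widely, with 9564856, 26479031 and 23527595 counts in EU replicates 1 to 3 but 647416, 413181 and 729649 in the same order in PBS. Levels are given as CPM, the share of a library's counts scaled to a common total. In EU 3 counts made up 0.105 to 0.377 CPM, in PBS 3.84 to 6.33 CPM, so PBS values of low genes rest on few counts. CPM values of single genes and lists were scaled by TMM factors, which align the bulk of genes between libraries. Of 12 neural progenitor markers 11 had enough counts to be tested, and the list summed to 6024 ± 698 CPM with label and 6167 ± 239 without. The exception was Prom1, at 0.87 CPM with label and 3, 0 and 0 counts in PBS replicates 1 to 3. In the same order Hes1 had 0, 3 and 0 counts and Hes5 had 2, 72 and 84. The most abundant was Slc1a3, a glutamate transporter of radial glia and astrocytes. Its level was 3206 ± 470 CPM with label and 3255 ± 70.7 CPM without (SD, n = 3 for the list and the gene). Of 8 microglia and macrophage markers 5 and of 9 vascular and fibroblast markers 7 had no count in any PBS library, and both lists summed to at most 9.47 CPM in every library. Markers of other states were not equal: in EU replicate 2 the 12 proliferation markers summed to 1204 CPM, against 292 and 293 in EU replicates 1 and 3 and 155 to 274 in PBS, and the 8 astrocyte markers summed to 5334 CPM, against 12836 and 9222 in the other EU libraries and 9415 to 18065 in PBS. Of those 8, the astrocyte genes Gfap, Aqp4 and Gja1 were lower in every EU library than in any PBS library, with Gfap at 344 ± 307 CPM in EU against 3599.7 ± 3282 CPM, Aqp4 at 662 ± 178 against 1387 ± 455 CPM and Gja1 at 1013 ± 475 against 2205 ± 774 CPM (SD, n = 3), and the groups overlapped for the other 5. These 3 genes were named after their values were seen.

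The label can only sit where an RNA has uridine, so the start of the coding sequence is shown for the 3 Spred messages, so that the gene the choice rests on can be set beside its relatives. The first 120 coding bases are given, from the ATG on, as DNA letters of GENCODE release M21 transcripts, and each capital T marks a position that is uridine in the RNA.
Spred1: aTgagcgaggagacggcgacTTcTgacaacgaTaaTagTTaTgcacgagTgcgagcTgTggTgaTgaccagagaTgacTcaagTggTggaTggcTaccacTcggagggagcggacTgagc
Spred2: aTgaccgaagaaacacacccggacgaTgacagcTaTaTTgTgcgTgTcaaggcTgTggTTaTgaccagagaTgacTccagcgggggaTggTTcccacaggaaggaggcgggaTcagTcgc
Spred3: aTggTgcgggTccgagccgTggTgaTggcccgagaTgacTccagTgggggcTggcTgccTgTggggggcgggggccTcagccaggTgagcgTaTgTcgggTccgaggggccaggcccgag
These stretches hold 22, 21 and 19 uridine positions. Over the whole annotated message, Spred1 held 1842 uridines in 6016 bases (30.6%), Spred2 1150 in 4449 (25.85%) and Spred3 979 in 4056 (24.1%). Over 11090 tested protein-coding genes the median uridine content was 24.6%, with 22.1% and 27.2% as quartiles. The 10 genes ranged from 22.4% in Fgfr3 to 30.6% in Spred1, so that Spred1 lay above the upper quartile and Spred2 and Spred3 inside the quartiles.

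Promoters are shown for Spred2 and for Spry1 and Dusp6, which went together across the EU libraries as described further on. Each sequence covers 250 bases before and 50 after the start site in RefSeq on GRCm38.p6, an earlier build than the GRCm39 of the counts. Capitals mark GGAAG on either strand (CTTCC on the strand shown), the core bound by ETS factors such as Etv5.
Spred2 promoter, chr11:19924192-19924491, plus strand: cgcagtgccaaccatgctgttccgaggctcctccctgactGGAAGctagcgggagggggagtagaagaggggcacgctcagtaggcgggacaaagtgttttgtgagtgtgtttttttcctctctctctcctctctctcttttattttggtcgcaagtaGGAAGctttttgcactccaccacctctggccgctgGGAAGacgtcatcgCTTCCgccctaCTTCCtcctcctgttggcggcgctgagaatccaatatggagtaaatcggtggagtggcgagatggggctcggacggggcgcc
Dusp6 promoter, chr10:99262981-99263280, plus strand: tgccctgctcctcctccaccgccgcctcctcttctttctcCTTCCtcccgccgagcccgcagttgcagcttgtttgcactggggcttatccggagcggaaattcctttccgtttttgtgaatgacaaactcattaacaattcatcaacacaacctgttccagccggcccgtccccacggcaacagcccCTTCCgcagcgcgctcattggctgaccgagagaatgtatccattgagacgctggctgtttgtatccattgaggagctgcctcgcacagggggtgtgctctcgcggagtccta
Spry1 promoter, chr3:37639697-37639996, plus strand: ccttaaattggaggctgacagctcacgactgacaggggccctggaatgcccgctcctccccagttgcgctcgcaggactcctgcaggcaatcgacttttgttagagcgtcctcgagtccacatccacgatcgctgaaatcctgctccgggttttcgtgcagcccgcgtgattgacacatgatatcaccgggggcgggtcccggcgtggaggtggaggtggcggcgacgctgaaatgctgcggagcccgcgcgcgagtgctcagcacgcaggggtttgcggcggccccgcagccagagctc
GGAAG occurred 5 times in the Spred2 window, 2 times in that of Dusp6 and 0 times in that of Spry1, and 71.4% of 32851 promoters of the same length held it. The longer ETS site CCGGAAGT (in 3.89% of promoters), the cyclic AMP response element TGACGTCA (1.79%) and the Capicua site TGAATGGA (1.21%), each searched on both strands, were in 0 of the 8 genes' promoters that the table holds. Capicua is a repressor that Erk inactivates, and its other site, TGAATGAA (1.3% of promoters), was found 1 time, in the Spred3 promoter. Fgfr1 and Spry4 have no entry in that table.

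Among the receptors, neither Fgfr1 nor Fgfr3 had EU values that all lay above the PBS values. Fgfr1 (ENSMUSG00000031565), the FGF receptor of many progenitor cells, measured 491, 442 and 493 CPM in EU replicates 1 to 3 and 374, 496 and 152 CPM in the PBS replicates. The PBS values straddled those of EU, and the fitted log2 fold of EU over PBS was 0.49 ± 0.38 (SE). Fgfr3 (ENSMUSG00000054252), the receptor that marks radial glia and astrocytes, measured 164, 85.8 and 142 CPM in EU and 80.5, 194 and 197 CPM in PBS. The groups overlapped, PBS replicates 2 and 3 were the highest of the 6 libraries, and the log2 fold was -0.27 ± 0.40 (SE). These receptor messages rested on 591 and 297 counts summed over the PBS libraries, more than any other of the 10 genes.

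Etv5 and Dusp6, both turned on by Erk, were higher in every EU library than in any PBS library, and both differed several-fold among the EU libraries. Etv5 (ENSMUSG00000013089), an ETS transcription factor of the Pea3 group, measured 88.7, 319 and 153 CPM in EU and 6.31, 40.1 and 17.9 CPM in PBS. All EU values lay above the PBS values, with EU replicate 2 far above its neighbours, and the log2 fold was 3.18 ± 0.69 (SE), or 2.47 without EU replicate 2. Dusp6 (ENSMUSG00000019960) measured 10.8, 55.9 and 18.1 CPM in EU and 9.47, 6.33 and 0 CPM in PBS. EU replicate 1 was close to PBS replicate 1, and the log2 fold of 2.47 ± 1.17 (SE) rested on 6, 3 and 0 PBS counts. Without EU replicate 2, Dusp6 and Spry1 no longer passed the low-count filter.

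The Sprouty genes did not behave alike. Spry1 (ENSMUSG00000037211) measured 10.9, 61.0 and 15.0 CPM in EU and 6.31, 2.11 and 0 CPM in PBS, where it had 4, 1 and 0 counts. All EU values were above those of PBS, and the log2 fold was 3.40 ± 1.25 (SE). Spry2 (ENSMUSG00000022114) measured 143, 164 and 150.3 CPM in EU and 91.5, 106 and 95.9 CPM in PBS. Here the libraries of each group lay close together and the groups were apart, with a log2 fold of 0.64 ± 0.23 (SE) and a ratio of means of 1.56. Spry4 (ENSMUSG00000024427) measured 20.6, 51.0 and 25.8 CPM in EU and 4.74, 19.0 and 26.8 CPM in PBS. PBS replicate 3 exceeded EU replicates 1 and 3, and the log2 fold was 0.94 ± 0.74 (SE).

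All 3 Spred genes lay above background in every EU library. The highest EU value was 1.09 times the lowest for Spred1, 1.25 times for Spred3 and 1.46 times for Spred2, where the median of tested genes with at least 5 CPM in EU was 1.30. Spred1 (ENSMUSG00000027351), which in humans is the gene of Legius syndrome and whose product brings neurofibromin to Ras, measured 173, 188 and 176 CPM in EU and 50.5, 63.3 and 92.1 CPM in PBS, a log2 fold of 1.37 ± 0.29 (SE). Spred2 (ENSMUSG00000045671), a close relative with the same restraining action on Ras signalling, measured 70.9, 103.6 and 81.6 CPM in EU and 11.05, 10.6 and 6.39 CPM in PBS. The lowest EU value was several times the highest PBS value, with a log2 fold of 3.22 ± 0.44 (SE) and means of 85.4 ± 16.7 and 9.33 ± 2.56 CPM (SD, n = 3). The PBS values of Spred2 came from 7, 5 and 5 counts, too few to tell how alike those libraries were. Spred3 (ENSMUSG00000037239), the least studied of the family, measured 31.7, 29.4 and 25.4 CPM in EU and 1.58, 14.8 and 6.39 CPM in PBS, a log2 fold of 1.97 ± 0.83 (SE). The Spred3 groups were apart, but its PBS values came from 1, 7 and 5 counts.

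**Figure D1:**
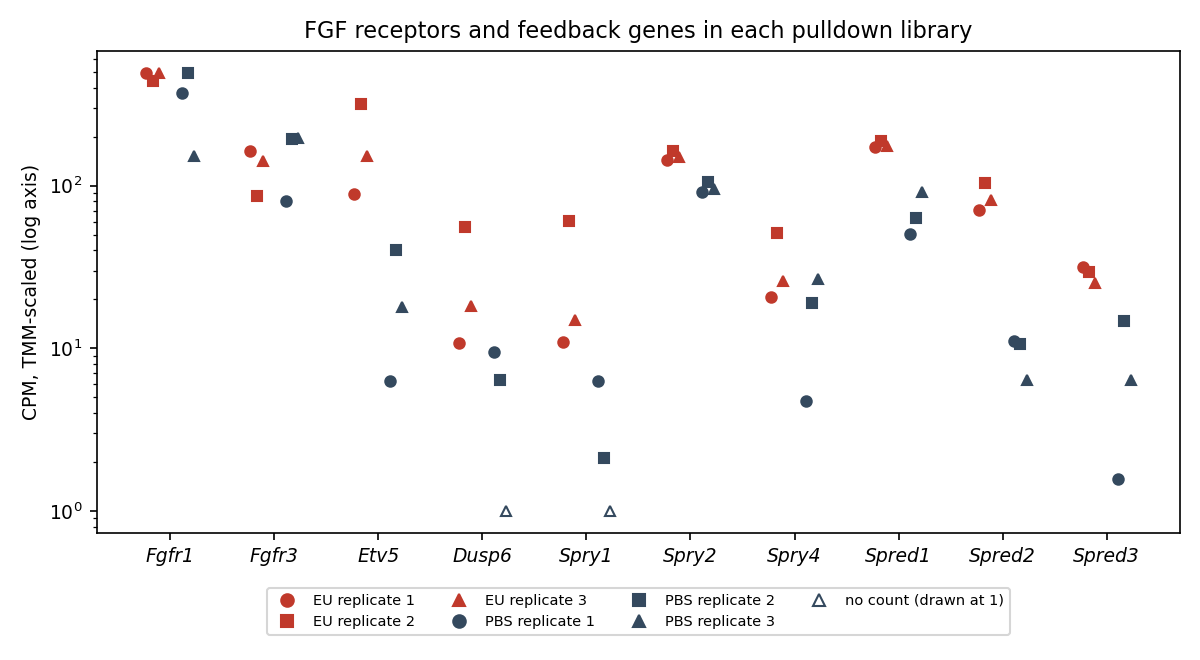
Each point is the TMM-scaled CPM of a gene in 1 library, on a log axis, with EU in red and PBS in blue-grey and the marker shape giving the replicate number; open markers are libraries with no count, drawn at 1 CPM. Spred2 shows a clear gap between groups (70.9 to 103.6 against 6.39 to 11.05 CPM), whereas the groups overlap for Fgfr1, Fgfr3 and Spry4.

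Counting error alone bounds these contrasts differently from gene to gene. Spred2 had 17 counts summed over the PBS libraries, for which an exact Poisson interval (95%) is 9.90 to 27.2 counts, against 5302 in EU. As shares of the summed totals, without TMM factors, Spred2 was 9.37 times as abundant in EU, and the PBS interval alone allows 5.85 to 16.1 times. For Spry1, with 5 PBS counts, the same ratio was 13.0 with an interval of 5.55 to 39.9, and for Dusp6, with 9, it was 6.93 with 3.65 to 15.2. Etv5 had 37 PBS counts and a ratio of 10.7 with 7.76 to 15.2. The intervals of these 4 genes overlap, and that of Spred1 was 2.003 to 2.83, from 134 PBS counts. These intervals cover counting error in PBS only, with the pooled EU counts taken as fixed, and not the spread between libraries. Of the 2156 pooled EU counts of Spry1, 1742 came from EU replicate 2. Neither a difference between EU and PBS nor an order of the genes is read from these intervals, since the genes were chosen with this contrast known.

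Set against the background of all genes, 9 of the 10 had a positive fitted fold and their median log2 fold was 1.67, whereas 56.5% of the 12477 tested genes were positive and the median of all was 0.15. For 7 of the 10, namely Etv5, Dusp6, Spry1, Spry2 and the 3 Spred genes, the lowest EU value exceeded the highest PBS value, as it did for 21.8% of all tested genes. Relative to the median of all genes the log2 folds ran from -0.42 in Fgfr3 to 3.25 in Spry1, with Spred2 at 3.06. All 10 passed the low-count filter, but Dusp6, Spry1 and Spred3 reached its level in only 2 of the PBS libraries and so passed through their EU counts. Since this contrast was known when the genes were chosen, nothing is read from these counts and no test is given.

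Per kilobase, the 10 messages spanned a wide range in the EU pulldown, and the order at the top depended on the length used. Over the union of all annotated exons, Spry2 measured 73.0 ± 4.95 CPM per kilobase (SD, n = 3) and Fgfr1 48.1 ± 2.94. Over the longest coding transcript, a length chosen after the data were seen, Fgfr1 (5041 bases in place of 9875) measured 94.3 ± 5.76 and lay above Spry2, still at 73.0, in every library, so that these genes have no settled order. Etv5, at 45.6 ± 29.0 per kilobase of exon, ranged from 21.6 to 77.9 and took in the values of its neighbours. Spred1 exceeded Spred2 in every library by either length, with 26.4 ± 1.23 against 18.5 ± 3.61 per kilobase of exon and 29.7 ± 1.39 against 19.2 ± 3.75 per kilobase of transcript. Fgfr3 measured 18.2 ± 5.63 per kilobase of exon, beside Spred2, and 30.8 ± 9.49 per kilobase of transcript, beside Spred1. At the low end Spry1 (9.97 ± 9.57), Dusp6 (9.02 ± 7.72), Spry4 (6.83 ± 3.42) and Spred3 (4.63 ± 0.51 per kilobase of exon) each overlapped with the next in order by either length, and Spry4 and Spred3 changed places. In PBS, per kilobase of exon, Spry2 measured 46.8 ± 3.44, Fgfr1 34.5 ± 17.7, Fgfr3 22.0 ± 9.28 and Spred2 2.02 ± 0.55.

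**Figure D2:**
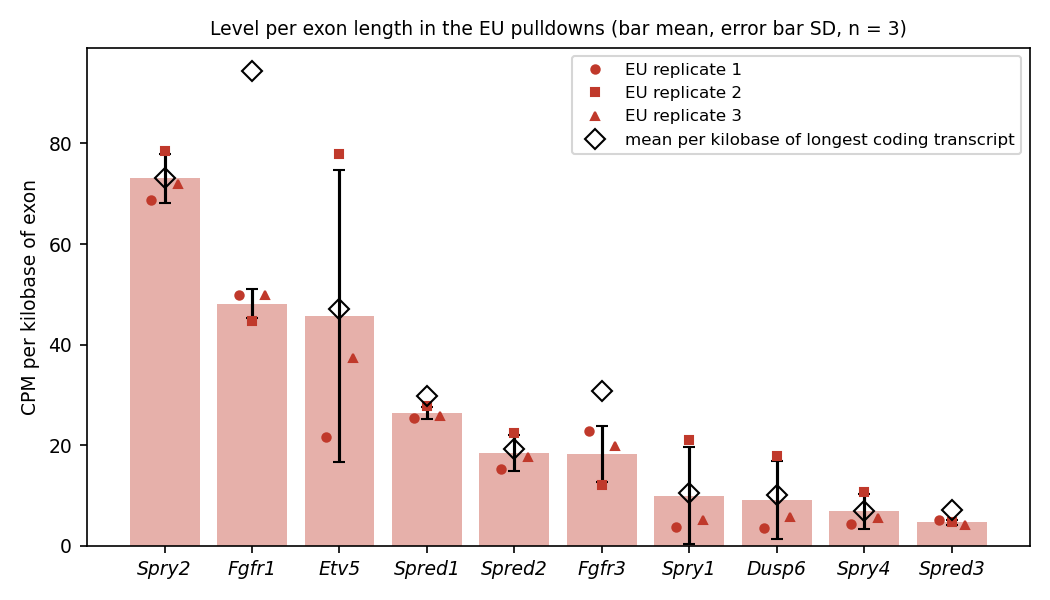
Bars give the mean CPM per kilobase of exon over the 3 EU libraries on a linear axis from 0, error bars the SD, and points the libraries. Open diamonds give the mean per kilobase of the longest coding transcript, by which Fgfr1 stands at 94.3, above Spry2 at 73.0; the error bars of Etv5, Spry1 and Dusp6 are wide because EU replicate 2 (squares) lies far above the other libraries.

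The spread among the 3 EU libraries, which played no part in choosing the genes, differed from gene to gene and within the Sprouty family. Etv5, Dusp6, Spry1 and Spry4 were highest in EU replicate 2 and lowest in EU replicate 1. Their values in EU replicate 2 were 2.64, 3.86, 4.71 and 2.197 times the mean of EU replicates 1 and 3. With library size alone in place of TMM factors the 4 ratios were 3.19, 4.67, 5.72 and 2.68. The ratio was lower for the Spred genes, at 1.08 in Spred1, 1.36 in Spred2 and 1.03 in Spred3, and for Spry2 at 1.11, and with library size alone these were 1.33, 1.66, 1.27 and 1.37. Fgfr1 stood at 0.90 (1.101 with library size alone) and Fgfr3 at 0.56 (0.69), the only one of the 10 that was lowest in EU replicate 2 by a wide margin. Among 10711 tested genes with a mean of at least 5 CPM in EU, 4.38% reached 2 times and 2.04% reached 3 times the mean of the other EU libraries in EU replicate 2, and 5.60% fell to 0.6 times or less. With 1 library on one side this is a description and no test is possible.

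Outside the 10 genes the pathway stood at the background in this respect. Of 98 other pathway genes that met the same level, 4 reached 2 times the mean of the other EU libraries, beside 4.38% of all genes, and these were Dusp1 (3.58 times), Dusp4 (3.44), Hbegf (2.55) and Etv4 (2.10 times), named after their values were seen. Dusp1 and Dusp4 are phosphatases of MAP kinases, Hbegf is a ligand of the EGF receptor and Etv4 belongs, like Etv5, to the Pea3 group. Among the 17 Erk-responsive genes the median was 1.01, and 2 fell to 0.6 times or less, Phlda1 (0.46) and Egr1 (0.597), also named after their values were seen, with Fos (0.602) and Myc (0.607) just above. No receptor, adaptor or kinase on the lists reached that ratio, and the median over the 16 kinases and scaffolds was 1.06. All 12 proliferation markers, in contrast, reached it, with a median of 4.17, and 6 of 8 astrocyte markers fell to 0.6 times or less, with a median of 0.48. Between EU replicates 1 and 3 the summed proliferation markers were nearly equal, at 292 and 293 CPM. In the same order Etv5 measured 88.7 and 153 CPM, Dusp6 10.8 and 18.1, Spry1 10.9 and 15.0, and Spry4 20.6 and 25.8 CPM. In EU replicate 1 Dusp6 and Spry1 rested on 86 and 87 counts. The part of proliferating cells or of astrocyte-like cells in these differences was not tested.

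**Figure D3:**
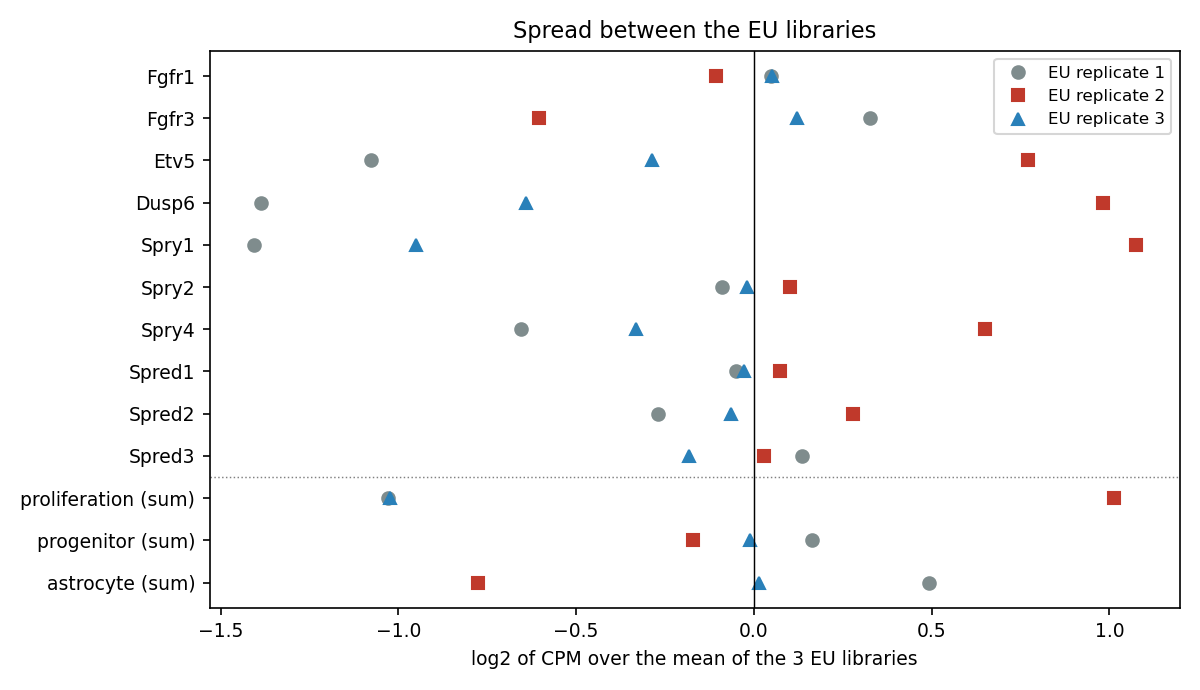
Each point is the log2 of a gene's CPM, or of the summed CPM of a marker list, in 1 EU library over the mean of the 3 EU libraries. EU replicate 2 (red squares) lies to the right for Etv5, Dusp6, Spry1, Spry4 and the proliferation markers and to the left for Fgfr3 and the astrocyte markers, while Spry2, Spred1, Spred3 and Fgfr1 stay near 0.

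Whether the share of an RNA differed between EU and PBS pulldowns was tested on the other genes of the pathway. A fold near 0 is an equal share of the libraries and does not show that an RNA carried no label. Of 138 genes listed by role and matched, 105 were tested, and at an adjusted p below 0.05 the edgeR quasi-likelihood test called 0 higher and 0 lower in EU, beside 0% and 0.024% of all genes. At an unadjusted p below 0.05, 10 were higher and 2 lower, beside 13% and 4.26% of all genes. DESeq2 called 2 higher, the glypicans Gpc4 and Gpc6, and 1 lower, Dusp3, beside 3.95% and 3.49% of all genes, and limma-voom called 0, beside 1.78% and 0.2%. With replicate numbers as a block in the fit, edgeR called Fgf1 and Gpc4 higher and 0 lower, beside 1.19% and 0.393%. Every EU library exceeded every PBS library for 23 of the 105 and fell short of them for 3, beside 21.8% and 6.4% of all genes, and the median log2 fold was 0.21 against 0.15. A positive fold was found for 71 of the 105, beside 56.5% of all genes. Genes with almost no PBS counts, such as Ier2, Dusp1 and Rras, passed the low-count filter through their EU counts, which favours a positive fold. In simulated data that gave every gene the common spread of its group, wider in PBS, the edgeR test called none of the genes that had been changed. Measured genes differed in spread, and there the test called 3 of all genes, so the simulation does not give its power for the pathway genes. The counts of 0 do not show that these genes were alike in EU and PBS.

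Genes of the ligand list, which also holds the FGF-binding protein genes Fgfbp1 and Fgfbp3, were scarce: only 6 of 24 were tested and 16 had no count in PBS. Fgf1, an FGF that binds every FGF receptor, was the exception, at 162, 300.02 and 177 CPM in EU and 69.4, 125 and 47.3 CPM in PBS (log2 fold 1.42 ± 0.41 SE, edgeR adjusted p = 0.105). The groups were apart, with EU replicate 2 again the highest. Fgf11 (26.0 ± 4.72 and 42.3 ± 32.7 CPM) and Fgf14 (11.5 ± 2.77 and 36.0 ± 40.9 CPM; SD, n = 3), intracellular FGF homologues that act on sodium channels, overlapped between groups (edgeR adjusted p = 0.683 and 0.465).

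Of the 27 genes listed as other receptors and co-receptors, 21 were tested, 15 with a positive fold (median log2 fold 0.48). This list also holds genes of heparan sulphate enzymes, such as Ext1 and Sulf2. Gpc4, a glypican whose heparan sulphate presents FGF to its receptors, measured 145, 247 and 242 CPM in EU and 30.0, 76.0 and 3.84 CPM in PBS (log2 fold 2.60 ± 0.75 SE, edgeR adjusted p = 0.102). Every EU library exceeded every PBS library, but PBS varied from 3 to 36 counts. Gpc6 measured 61.2 ± 17.7 and 22.5 ± 6.03 CPM (SD, n = 3; edgeR adjusted p = 0.126), with groups apart. The syndecan Sdc4 overlapped at 172 ± 44.7 and 107 ± 49.5 CPM (edgeR adjusted p = 0.425).

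Of 22 tested adaptor and Ras genes 17 had a positive fold (median 0.23). Cbl, the ubiquitin ligase that takes activated receptors out of action, measured 227 ± 14.1 CPM with label and 149 ± 24.6 CPM without (SD, n = 3; edgeR adjusted p = 0.208), and the small Ras relative Rras 7.36 ± 2.45 and 1.05 ± 1.82 CPM (0.273). Rras had 2, 0 and 0 counts in PBS replicates 1 to 3. The adaptors Shc3 (136 ± 11.7 and 79.7 ± 65.3 CPM) and Gab1 (135 ± 27.6 and 117 ± 80.2 CPM) overlapped between groups. Of 17 kinases and scaffolds 12 had a positive fold (median 0.14). Rps6ka2, a ribosomal S6 kinase activated by Erk, measured 49.1 ± 4.57 and 19.0 ± 10.4 CPM with groups apart (edgeR adjusted p = 0.228). Ksr2, a scaffold of the Raf step, was low in both groups (3.16 ± 1.44 and 1.41 ± 2.44 CPM). The 14-3-3 genes Ywhaz (454 ± 80.9 and 508 ± 105 CPM) and Ywhab (202 ± 2.94 and 209.5 ± 39.2 CPM), whose products hold Raf inactive, overlapped.

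Among 20 tested negative regulators outside the 10 genes, 14 had a positive fold (median 0.24). Dusp3, a small phosphatase that acts on Erk, went the other way at 53.4, 53.1 and 55.0 CPM in EU and 117, 108 and 93.3 CPM in PBS (log2 fold -0.98 ± 0.27 SE, edgeR adjusted p = 0.094). The groups were apart and the EU libraries nearly equal. Dusp1 measured 10.2 ± 8.36 and 0.704 ± 1.22 CPM (SD, n = 3; edgeR adjusted p = 0.186), from 1 count in all of PBS. The receptor antagonist gene Lrig1 (591 ± 69.2 and 516 ± 172 CPM) and the Raf inhibitor gene Pebp1 (184 ± 35.8 and 174 ± 64.7 CPM) overlapped between groups.

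Of 19 tested Erk-responsive genes 11 had a positive fold (median 0.15). Ier2, an immediate early gene, measured 4.75 ± 0.72 CPM in EU. None of the PBS libraries had a count of it, so it passed the low-count filter through its EU counts alone. Only a higher level in EU could then be found. Taking 3 counts over the PBS group as the floor, its EU mean was 2.99 times that floor (edgeR adjusted p = 0.080). Cic, the gene of Capicua, was steady within groups at 294 ± 3.94 and 205 ± 36.7 CPM, with groups apart (edgeR adjusted p = 0.273). Mcl1, a survival factor of the Bcl2 family, overlapped at 70.2 ± 13.4 and 57.3 ± 49.5 CPM. Summed by list, the other receptors and co-receptors (1904 ± 58.0 and 1434 ± 259 CPM), the adaptors (1936 ± 61.8 and 1659 ± 218 CPM) and the Erk-responsive genes (962 ± 59.0 and 787 ± 110 CPM) were higher in every EU library, at an exact two-sided permutation p = 0.1, the smallest that 3 against 3 libraries allow, and 0.2 after Benjamini-Hochberg adjustment over 6 lists. The ligands (exact permutation p = 0.4), the other negative regulators (0.4) and the kinases (0.7) had overlapping sums. Over all tested genes the mean sum was also higher with label, at 1063650 ± 137457 CPM against 934133 ± 75396 without (SD, n = 3). There the groups overlapped, with EU replicate 2 at 921430 CPM below PBS replicate 1 at 1013190. Whether any list rose beyond this background was not tested.

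**Figure D4:**
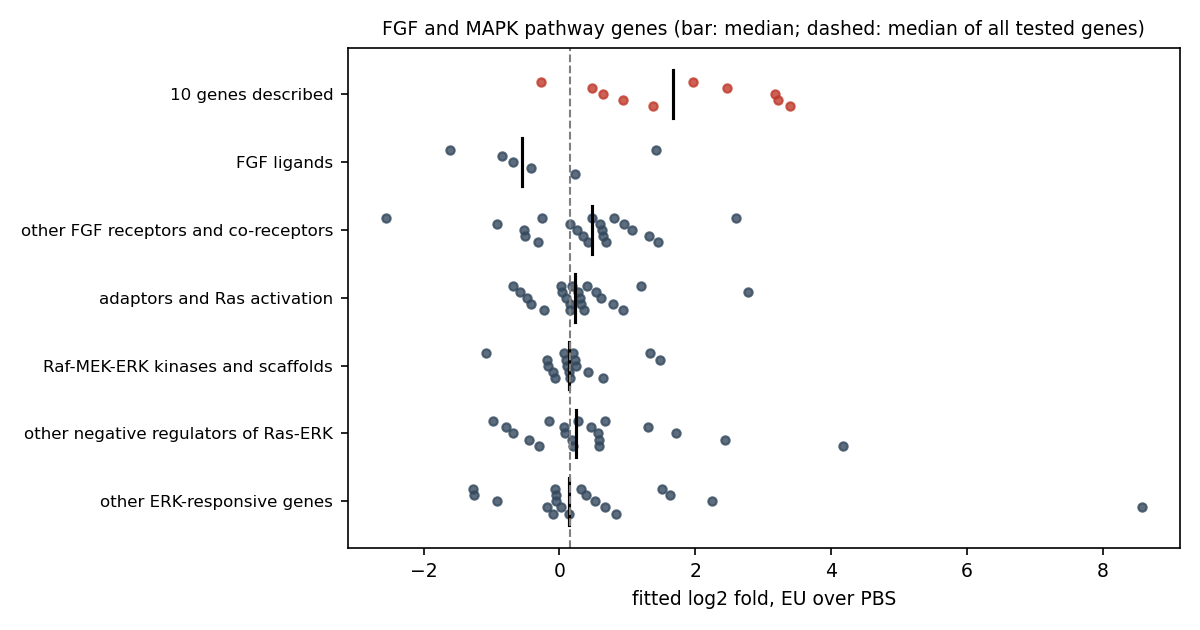
Each point is the fitted log2 fold of EU over PBS of a tested gene, black bars are list medians and the dashed line is the median of all tested genes (0.15). The 10 genes, chosen with this contrast known, reach from -0.27 to 3.40 around a median of 1.67, and the medians of the other lists lie between -0.55 and 0.48; the point at 8.58 is Ier2, whose fitted fold rests on no PBS count.

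The annotated messages of the 10 genes shared some features that played no part in choosing them. Each carried at least 1 AUUUA in its 3′ untranslated region, the pentamer found in AU-rich elements of short-lived messages, as did 71.9% of tested protein-coding genes. Spred1 had 12 of them in 4330 bases, Spred2 4 in 2579 and Spry2 2 in 856, and the density over the 10 genes ran from 0.841 per kilobase in Dusp6 to 3.32 in Fgfr3 around a median of 1.94, against 1.37 over all. The 3′ untranslated regions had a median of 1977 bases against 1274 over all. Spry1, Spry2 and Spry4 have 2 exons each and Dusp6 3, where the median of all was 9, while Fgfr1 and Fgfr3 have 18. The Spred2 gene spans 99652 bases, the longest of the 10, and Dusp6, with 4259, the shortest.

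Over the 6 libraries, the tested genes whose log2(CPM + 1) followed that of Spred2 most closely were Ntn1 (Pearson r = 0.989), Arid2 (0.986), Nol11 (0.985), Tcf4 (0.985) and Slc39a6 (0.984), among 7579 genes with a count in every library. Ntn1, the gene of the guidance cue netrin-1, measured 36.6, 68.3 and 63.1 CPM in EU and 9.47, 8.44 and 3.84 CPM in PBS. Tcf4, a transcription factor gene, had the same pattern at a far smaller amplitude, from 637 to 708 CPM in EU and from 462 to 497 CPM in PBS. With 6 libraries that fall into 2 groups these correlations mostly describe a gap between EU and PBS, and they are given as likeness only.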

How the data were processed

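RNA counts of 3 EU and 3 PBS pulldown libraries were analysed. The authors deposited whole-number counts per Ensembl gene ID, without normalization. Per the submitters' processing notes, the tools were STAR 2.7.10b, featureCounts 2.0.1, bcl2fastq 2.20.0 and UMI-tools 1.1.2, and the build was GRCm39; roles are not stated. The deposited sheet's name has "umi" in it, which was read as counting by unique molecular identifier. No source used here gives the strand setting or the handling of multiply mapped reads, so overlapping or antisense genes cannot be told apart. Every value column was matched to a sample title, and 0 rows lacked a gene ID.

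Of 55416 IDs, 52083 matched a symbol. GENCODE M21 gave lengths (the union of exons, or the longest coding transcript) and transcript sequences, RefSeq (GRCm38.p6) promoters for 8 of the 10 genes. Of 139 listed pathway genes 138 matched. Replicates of a group differed by far more than sampling noise.

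Groups were compared in R 4.3.3 by edgeR 4.0.16 (quasi-likelihood test) with TMM factors, filterByExpr (12477 genes) and group as the only term, with Benjamini-Hochberg adjustment over all tested genes and a threshold of 0.05. It was tested on simulated data in which every gene of a group had 1 common spread. With the spread of EU in both groups it found most of the larger changes. With the common spread of each group, wider in PBS, it found none. DESeq2 1.42.0, limma-voom (limma 3.58.1), other scalings and filters, a replicate block and leaving out each library were alternatives. Fitted folds of genes near 0 in PBS depend on the prior count. The SE of an edgeR fold is its absolute log2 value over the square root of the test's F value. It thus draws on spread estimates shared between genes. Intervals are exact Poisson intervals (95%).

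The genes and lists were chosen with earlier results of these data known. Named besides the 10 genes were, per pathway list, the 2 genes with the smallest p and the 2 most abundant per kilobase in EU, the 5 genes most like Spred2, and the leading marker of a list where it is quoted. Leading markers of the other lists were Slc1a2 (2719.9 ± 975 CPM in EU and 2119 ± 122 in PBS), Map2 (567 ± 54.3 and 554 ± 22.2), Olig1 (1138 ± 262 and 552 ± 91.7), Cd68 (0.918 ± 0.644 and 0.526 ± 0.911), Col1a1 (1.67 ± 0.80 in EU, no count in PBS) and Mki67 (209 ± 196 and 50.0 ± 37.3; SD, n = 3 each).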

Additional observations from a re-analysis of the deposited data

How the results depend on the processing

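The sign of the fold of each of the 10 genes was the same in every alternative that could be fitted. The genes were chosen with this contrast known, so the ranges describe the fits and lend no support to a difference. Spred2 ran from 2.98 (without EU replicate 2) to 3.45 (without PBS replicate 1), Spred1 from 1.20 to 1.72, Spry2 from 0.48 to 0.79, Etv5 from 2.47 (without EU replicate 2) to 3.97, and Fgfr3 from -0.52 to -0.002. Without EU replicate 2 or EU replicate 3, Spry1 and Dusp6 did not pass the redone filter; their ranges over the other alternatives were 2.78 to 5.19 and 1.88 to 3.50. The median log2 fold of all genes was 0.15 with TMM factors and -0.01 with library size alone.

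Counts of calls over all genes depended on the tool. Against 0 higher and 3 lower in EU, DESeq2 size factors in edgeR gave 7 lower, library size alone 3 higher and 40 lower, no low-count filter 121 and 336, DESeq2 493 and 435, and limma-voom 222 and 25. Leaving out a library gave 0 higher and 0 to 11 lower, with 11 without EU replicate 1 and 0 without any single PBS replicate. Among the other pathway genes, 1 was called higher without a filter (Gpc4) and DESeq2 called 2 higher and 1 lower. Leaving out a library gave 0 in either direction.

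A replicate block, with the number from the titles as its term, gave 148 calls higher and 49 lower, among them 2 other pathway genes higher (Fgf1 and Gpc4). Deviations of same-numbered libraries correlated at 0.088, 0.064 and 0.037, and every library correlated best with its own number, a hint from the data and not from the design. With the longest coding transcript as length, an alternative added after seeing the data, Fgfr1 moved from 48.1 to 94.3 CPM per kilobase and above Spry2. PBS depth limits all genes below a few CPM.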
